A study of Mus musculus with 26 samples.

Results

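The comparison described here is the first 2 days of primordial germ cell induction in the presence of dTAG13, a small molecule that links a tagged protein to the degradation machinery and was used to deplete Tex10. The members were chosen by their labels: 2 libraries of day 2 primordial germ cell-like cells (PGCLCs) made with dTAG13 at 500 nM and 2 libraries of the epiblast-like cells (EpiLCs) from which the PGCLCs were derived, 4 of the 26 samples of the series. The EpiLCs were labelled untreated, all cells were mouse cells of the strain 129Sv/J, and 2 day 2 libraries made with the solvent DMSO were set beside them. Of 53978 genes listed for these cells, the 16605 with a mean of at least 1 over the 10 libraries of the experiment were tested. The gene at the lower edge of this filter, Ctsk, had a mean of 1.0006, and the gene just outside it, Gm36933, had a mean of 0.99998.

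As a germ cell model, PGCLCs arise when EpiLCs, which resemble the formative epiblast poised for lineage choice, are exposed to bone morphogenetic protein (BMP) and supporting cytokines. In the course of this induction, epiblast genes such as Fgf5, Otx2 and the de novo DNA methyltransferases are shut down, naive pluripotency genes are switched on again, and the transcription factors Prdm1, Prdm14 and Tfap2c establish germ cell identity. Tex10 is a subunit of the Pelp1-Tex10-Wdr18 complex that acts in ribosome maturation, and it has also been studied as a partner of Sox2 at enhancers in pluripotent cells. The degradation tag acts on the protein, so the Tex10 mRNA checks the labels only weakly and does not measure depletion. Tex10 mRNA was 121 and 131 in the EpiLC libraries, 106 and 113 with DMSO and 104 and 94.0 with dTAG13, in CPM, reads scaled to library size, here with the trimmed mean of M values (TMM-scaled CPM, the unit of all levels below). Its change with dTAG13 was −0.35 ± 0.11 on the log2(value + 1) scale (± SE, limma, adjusted p = 0.011). That call was lost without EpiLC replicate 2 or dTAG13 replicate 2 (adjusted p = 0.097 and 0.11) and in 5 further settings, and the dTAG13 libraries did not differ from the DMSO libraries by that test (adjusted p = 0.32).

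The markers of the starting cells matched their label: Fgf5, a growth factor of the formative epiblast, stood at 132 and 155 in EpiLC. Of the germ cell specifiers, Tfap2c was high at day 2, whereas Dppa3, a marker of established germ cells, was at only 1.86 and 2.27 with dTAG13 and 1.89 and 2.31 with DMSO. The 6 libraries held between 5055362 and 8564563 reads, and the lowest 2 totals were those of the dTAG13 libraries. More genes were above 0 in the dTAG13 libraries (26078 and 26842) than in the other 4 (23453 to 23999), and olfactory receptor genes, which serve in the nose, were above 0 for 322 and 383 of 1408 genes against 93 to 120. Signal in genes below the filter was 0.603% and 0.642% with dTAG13 against 0.292% to 0.355% in the other 4. These signs were not confined to dTAG13 libraries. At day 4, DMSO replicate 2 had 28687 genes above 0, 560 olfactory receptor genes above 0 and 0.489% of signal below the filter. DMSO replicate 1 at day 4 had 23893, 122 and 0.307%. The dTAG13 libraries of day 4 had 28809 and 27161 genes above 0, with 584 and 460 olfactory receptor genes. Of the 3365 genes called higher with dTAG13 than in EpiLC, 709 (21.1%) had a dTAG13 mean under 5, and the part of this low-level signal in their rises was not tested. The EpiLC and day 2 libraries have 2 replicates each, which the labels do not describe as separate cultures. The p-values measure only the spread between replicate libraries, which may be technical. That spread was estimated over all 10 libraries, the day 4 libraries included. The day 4 DMSO pair differed most, with a median absolute log2 difference of 0.225 against 0.166 to 0.183 in the other groups. EpiLCs exposed to dTAG13 are not among the samples, and effects of the compound itself and of Tex10 loss cannot be told apart here.

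With dTAG13, 3365 genes were called higher than in EpiLC (20.3% of the genes tested, limma with Benjamini-Hochberg adjustment, adjusted p under 0.05) and 4926 lower (29.7%), 49.9% in all. With DMSO the same step gave 1902 genes called higher (11.5%) and 2445 lower (14.7%). Both steps share the EpiLC libraries, so their values are given side by side, and the difference between the steps was tested directly as dTAG13 against DMSO at day 2, where the EpiLC libraries cancel. In that test 2269 genes were higher with dTAG13 (13.7%) and 3308 lower (19.9%), 33.6% in all. Restricted to changes of at least 1 on the log2 scale, 1730 genes were higher than in EpiLC with dTAG13 (10.4%) and 1621 lower (9.76%), against 784 (4.72%) and 683 (4.11%) with DMSO. Between the treatments 1097 genes were higher (6.61%) and 692 lower (4.17%) by at least that much. The median gene was at −0.10 with dTAG13 as deposited and at −0.01 after median-ratio scaling, and small falls are read against that shift. Of all calls against DMSO, 40.7% were higher as deposited and 52.0% after median-ratio scaling. For the step from EpiLC these shares were 40.6% and 48.5%.

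Which genes belong to the induction programme was taken from other libraries, those of the overexpression experiment, which share no sample with the dTAG13 experiment: an empty-vector line and 2 Tex10 overexpressing clones, each as EpiLC and at day 2. Tex10 stood at 213 in the empty-vector EpiLC and at 394 and 385 in the clones, so the programme is the average step of 3 lines with different Tex10 levels, not that of unmodified cells. Of 15255 genes tested there, 24.1% were called higher at day 2 and 22.1% lower, whatever the size of the change. Rising programme genes were those called higher with a log2 fold change of at least 1. Falling genes were those called lower with a change of at least that size. Of 1096 rising and 847 falling genes, 1063 and 741 were also tested in the dTAG13 experiment. Of the 1063 rising genes, 590 (55.5%) were called higher than EpiLC with dTAG13, 102 lower and 371 were not called, with a median log2 fold change of 0.68. With DMSO 631 (59.4%) were called higher and 20 lower, with a median of 0.73. Over all 16605 genes tested, 20.3% were called higher with dTAG13 and 11.5% with DMSO, so the similar counts stood against different backgrounds. Of the 741 falling genes, 449 (60.6%) were called lower with dTAG13, 62 higher and 230 were not called, with a median of −0.87. With DMSO 437 (59.0%) were called lower and 14 higher, with a median of −0.85. The shares over all genes were 29.7% lower with dTAG13 and 14.7% with DMSO.

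**Figure D1:**
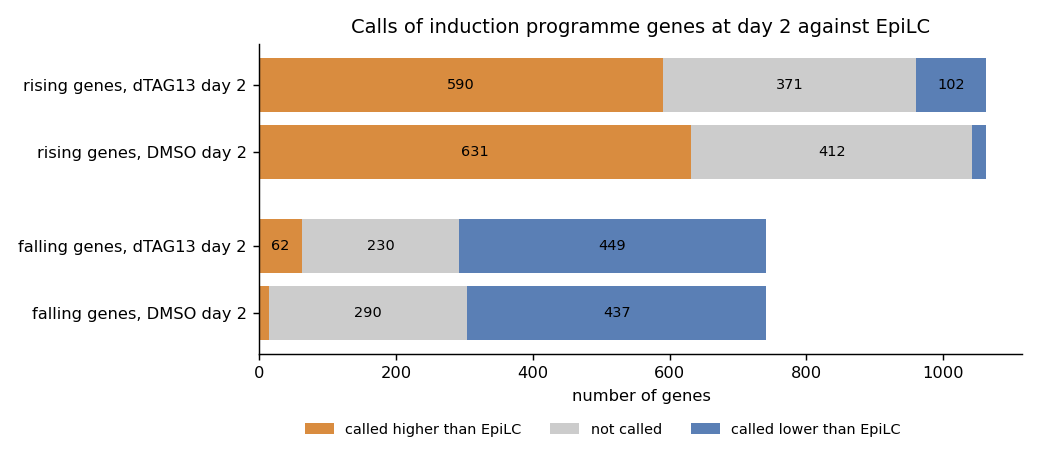
Number of induction programme genes (x axis) called higher, not called or called lower at day 2 against EpiLC, for rising and falling genes and for each treatment. The counts called in the programme's direction were 590 with dTAG13 and 631 with DMSO for rising genes, and 449 and 437 for falling genes.

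The programme genes that started were not all at the level of the DMSO libraries. Of the 590 rising genes that were called higher with dTAG13, 69 were lower than with DMSO, 224 were higher and 297 were not called. These 590 were chosen by their dTAG13 values, so this split leans towards higher calls by construction. Over all 1063 rising genes, 231 (21.7%) were higher with dTAG13 than with DMSO and 277 (26.1%) lower. Among all tested genes 13.7% were higher and 19.9% lower. A rising gene was counted as failing to turn on when it was not called higher than EpiLC and was lower with dTAG13 than with DMSO. This held for 208 of 1063 rising genes (19.6%), close to the 19.3% of all tested genes that met the same rule, so nothing particular to the programme is read from the count. The corresponding count of falling genes that were not called lower than EpiLC and were higher with dTAG13 than with DMSO was 115 of 741 (15.5%), against 13.2% of all genes. Neither rule required that the gene moved with DMSO, so the counts are not counts of steps lost with dTAG13. Spry4 counted as failing to turn on with a DMSO change of −0.005 (limma, adjusted p = 0.98). Taf7l counted as failing to turn off with a DMSO change of 0.25 (adjusted p = 0.59). The named genes below therefore carry the description, not these totals.

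Of 14 tested BMP target genes, 10 were higher with dTAG13 than in EpiLC and 2 lower, with a median of 2.76 against −0.10 for all genes, and 3 of the 10 had an EpiLC mean under 1. With DMSO 11 were higher and 1 lower, with a median of 1.57. The shares called higher among all genes were 20.3% with dTAG13 and 11.5% with DMSO. Compared directly, 6 of the 14 were higher with dTAG13 than with DMSO and 3 lower, with a median of 0.36. Of all genes 13.7% were higher and 19.9% lower in that comparison. Id1, an inhibitor of basic helix-loop-helix factors and a direct BMP target, rose from 6.84 and 8.86 in EpiLC to 207 and 246 with dTAG13, and stood at 154 and 154 with DMSO. The change was 4.69 ± 0.18 (adjusted p = 8.2e-15), and the dTAG13 libraries were above both DMSO libraries by 0.55 ± 0.18 (adjusted p = 0.021). Id2 rose from 6.34 and 5.98 to 75.4 and 72.2 (45.4 and 49.3 with DMSO), and Id3 from 7.73 and 7.76 to 66.8 and 79.7 (30.8 and 32.4 with DMSO). For both genes the 3 groups did not overlap and the dTAG13 libraries were highest.

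Further BMP-responsive transcription factors also rose. The homeobox gene Dlx3 went from 0.507 and 0.554 to 17.1 and 32.0 with dTAG13, above the 3.40 and 2.71 with DMSO by 2.60 ± 0.30 (adjusted p = 7.7e-07). Msx2, another homeobox gene, rose to 14.8 and 21.7 from 0.760 and 0.332, again above the 8.43 and 6.38 of the DMSO libraries. Gata2, whose product acts in trophoblast and blood, rose from 0.634 and 0.665 to 26.3 and 31.6, and its difference from DMSO (24.4 and 22) was not called (adjusted p = 0.26). Feedback inhibitors of the pathway did not rise. Smad6 was at 15.1 and 10.8 with dTAG13 against 13.7 and 12 in EpiLC and 26.7 and 27.4 with DMSO, and was lower than with DMSO, with a difference of −1.02 ± 0.18 (adjusted p = 1.9e-04). Hey1, a transcriptional repressor on the same list, was at 0.507 and 0.665 in EpiLC, 3.14 and 1.63 with DMSO and 0.777 and 0.535 with dTAG13. Smad6 and Hey1 were the listed BMP targets of the rising programme that met the rule for failing to turn on. Smad7 and Bambi were lower than in EpiLC, with changes of −0.48 ± 0.11 and −1.22 ± 0.22. The call of Smad7 was lost after quantile normalization (−0.18, adjusted p = 0.18). The ligand gene Bmp4, a rising programme gene, was at 16.3 and 11.1 with dTAG13, overlapping the 11.0 and 12.6 of EpiLC and below the 31.4 and 24.4 with DMSO (−0.99 ± 0.20, adjusted p = 5.0e-04).

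**Figure D2:**
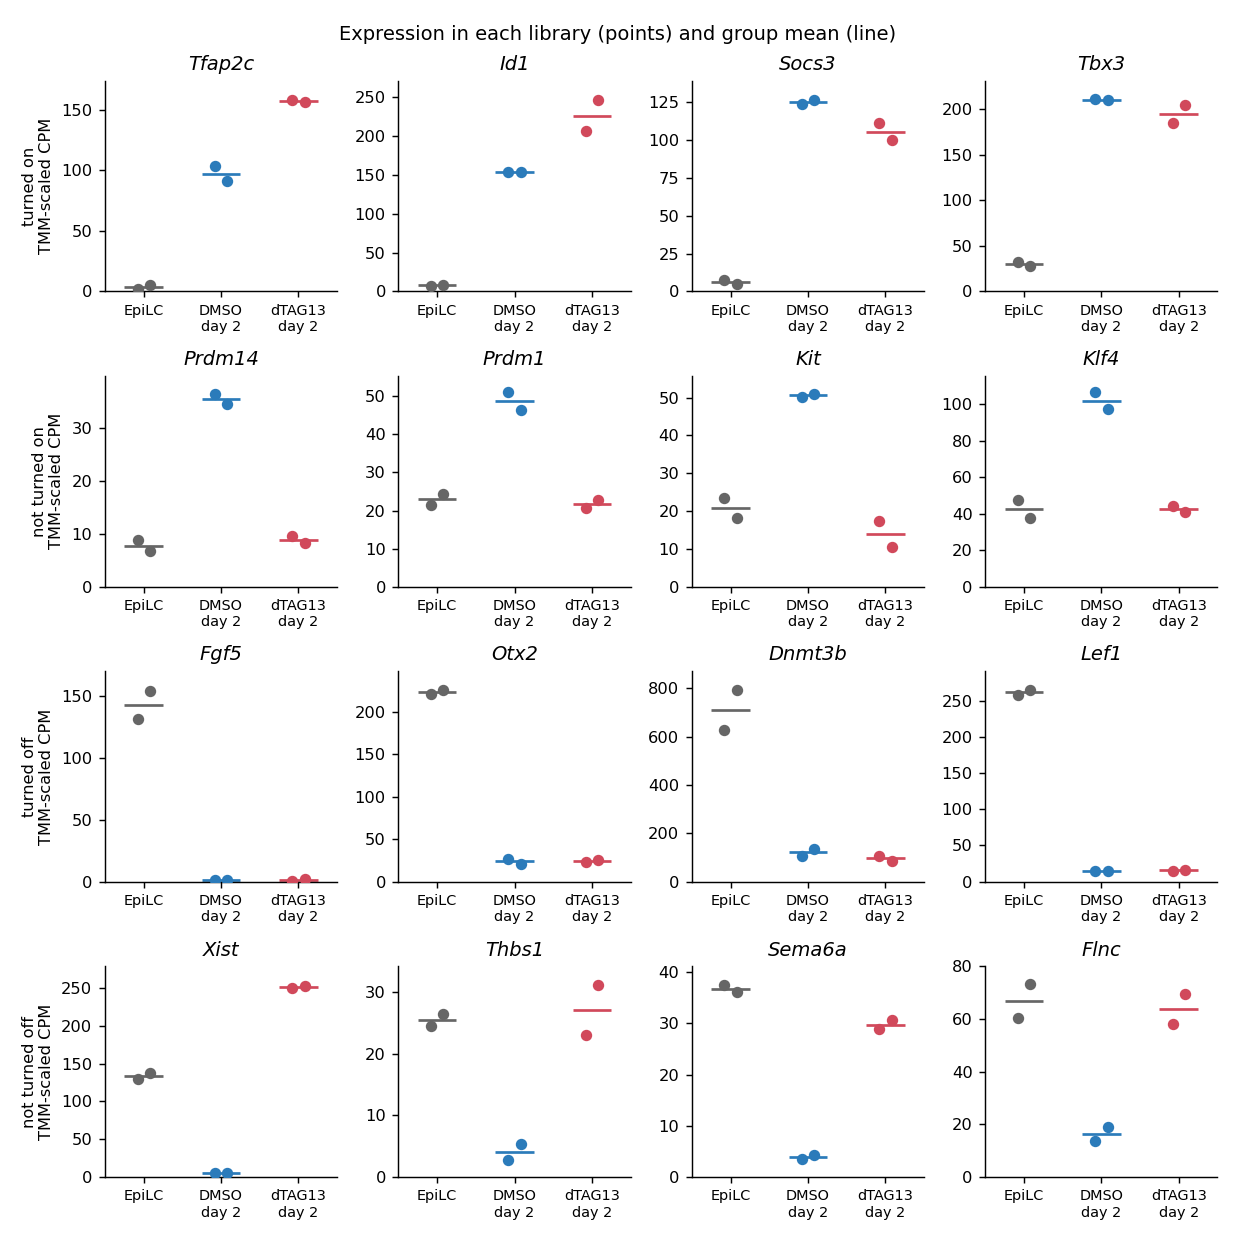
Level of 16 genes in TMM-scaled CPM (y axes, each starting at 0) in the EpiLC, DMSO day 2 and dTAG13 day 2 libraries, with points for libraries and lines for group means. In the top row all dTAG13 libraries lie far above EpiLC, and in the second row they lie near or below EpiLC. In the third row both day 2 groups are low. In the bottom row the dTAG13 libraries remain near or above EpiLC while the DMSO libraries are low.

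The germ cell specifiers did not move together. Tfap2c, which encodes the AP-2 gamma factor of early germ cells and trophoblast, was 2.28 and 4.99 in EpiLC, 158 and 157 with dTAG13 and 104 and 90.9 with DMSO. It was the largest rise of all genes that met the naming rule, 5.16 ± 0.18 on the log2 scale (adjusted p = 3.0e-15), and it was above DMSO by 0.69 ± 0.18 (adjusted p = 0.0055). Prdm14, a repressor of epiblast and DNA methylation genes, was 8.87 and 6.65 in EpiLC and 9.48 and 8.29 with dTAG13, with overlapping groups, against 36.5 and 34.6 with DMSO. Its change from EpiLC was not called (adjusted p = 0.49), and it was lower than with DMSO, with a difference of −1.89 ± 0.21 (adjusted p = 5.4e-07). Prdm1, which encodes the repressor Blimp1, was also near its EpiLC level: 21.5 and 24.4 in EpiLC, 20.7 and 22.7 with dTAG13 and 51.2 and 46.4 with DMSO. It was lower than with DMSO, with a difference of −1.13 ± 0.18 (adjusted p = 4.1e-05) and its change from EpiLC was not called (adjusted p = 0.74). In the vector lines the Prdm1 rise was 0.93, just under the threshold of 1, so Prdm1 is not counted as a programme gene.

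Of the 20 germ cell specifiers and early germ cell genes, 9 were higher with dTAG13 than in EpiLC and 3 lower, with a median of 0.39, whereas 13 were higher and 1 lower with DMSO, with a median of 1.16. Over all genes 20.3% were called higher and 29.7% lower with dTAG13, and 11.5% higher with DMSO. Of the 9 genes, 2 had an EpiLC mean under 1. Against DMSO, 13 of the 20 were lower with dTAG13 and 3 higher, and 19.9% of all genes were lower. Kit, the receptor for stem cell factor on germ cells, fell from 23.4 and 18.1 to 17.4 and 10.6 with dTAG13 (−0.56 ± 0.18, adjusted p = 0.014) and stood at 50.3 and 51.0 with DMSO. The fall of Kit was not called without EpiLC replicate 1 or dTAG13 replicate 2 (adjusted p = 0.17 and 0.34), nor with edgeR (adjusted p = 0.077), whereas the dTAG13 and DMSO libraries did not overlap. Ifitm1, a membrane protein gene expressed in forming germ cells, was at 10.3 and 8.16 with dTAG13, overlapping the 6.21 and 8.53 of EpiLC, against 26.4 and 24.2 with DMSO. Its neighbour Ifitm3, in contrast, rose from 43.5 and 30.1 to 76.3 and 87.5, with DMSO at 142 and 95.5. Nanos3, which protects germ cells from death, rose from 3.30 and 3.43 to 8.55 and 6.96 (1.00 ± 0.25, adjusted p = 0.002), and its difference from DMSO (9.43 and 11.1) was not called (adjusted p = 0.27). On the X chromosome, the homeobox gene Rhox9 reached 17.4 and 16.4 with DMSO and only 2.02 and 1.07 with dTAG13, from 0.253 and 0.665 in EpiLC, a small rise that was not called without EpiLC replicate 1 or dTAG13 replicate 1 (adjusted p = 0.18 and 0.21). Rhox6 was 2.33 and 3.48 with dTAG13 against 12.8 and 16.3 with DMSO. The Rhox genes are near copies of each other, so how their reads were divided is uncertain. As these are bulk samples, fewer cells of a type and less RNA per cell cannot be told apart in any of these values.

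Of 18 later germ cell genes, 14 were tested, 7 were higher than EpiLC with dTAG13 and 2 lower. Of these 7, 4 had an EpiLC mean under 1 and could pass the filter through the later libraries alone, so the count is given as a description. Of all genes 20.3% were higher with dTAG13 and 29.7% lower. With DMSO 3 of the 14 were higher and none lower, where 11.5% and 14.7% of all genes were. Against DMSO, 2 were higher with dTAG13, 2 lower and 10 not called, where 13.7% of all genes were higher and 19.9% lower. The summed level of the list was 141 and 129.8 with dTAG13 against 144 and 148 in EpiLC. Most of the EpiLC sum came from Rpl10l, a ribosomal protein gene that fell from 93.0 and 91.5 to 47.4 and 53.4, with DMSO at 94.2 and 78.3, and whose reads are uncertain because it is a near copy of Rpl10. Without Rpl10l the sums were 93.9 and 76.4 with dTAG13, 75.7 and 82.6 with DMSO and 50.7 and 56.8 in EpiLC. Taf7l, a testis paralogue of a general transcription factor subunit, rose to 6.99 and 6.15 with dTAG13 from 0.760 and 0.776 in EpiLC, with DMSO at 1.13 and 1.09. Tdrd1, a piRNA pathway gene, rose to 6.99 and 5.22 from 1.52 and 0.997, with DMSO at 2.26 and 3.3. Both fell in the vector lines, by 1.35 and 1.37 on the log2 scale. Stra8, the retinoic acid-responsive meiosis gatekeeper and a rising programme gene, reached 5.28 and 3.34 with dTAG13 and 9.43 and 13.0 with DMSO from 0.253 and 1.44.

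Of 21 genes of the naive pluripotency network, 10 were higher than EpiLC with dTAG13 and 4 lower, with a median of 0.23, against 15 higher and 4 lower with DMSO and a median of 1.30. Against DMSO, 15 of the 21 were lower with dTAG13 and 1 higher. Of all genes 11.5% were higher with DMSO, and 19.9% were lower with dTAG13 than with DMSO. Of the 14 listed genes that belong to the rising programme, 9 rose with dTAG13 and 5 met the rule for failing to turn on. Of all genes 20.3% were called higher and 19.3% met that rule, and of the rising programme 55.5% and 19.6%. Those 5 were Esrrb, Klf2, Klf4, Zfp42 and Spp1. After quantile normalization Esrrb and Zfp42 were called higher than EpiLC, by 0.37 and 0.44 (adjusted p = 0.0058 and 0.0042), and then did not meet that rule. Klf4, a reprogramming factor, was 47.7 and 37.3 in EpiLC, 44.3 and 40.9 with dTAG13 and 106 and 97.3 with DMSO, so that the dTAG13 libraries overlapped EpiLC. Esrrb, an orphan nuclear receptor that sustains self-renewal, was 205 and 182 with dTAG13 against 179 and 182 in EpiLC and 465 and 427 with DMSO (−1.20 ± 0.10, adjusted p = 1.6e-08). Zfp42, also called Rex1, was 246 and 220.5 against 225 and 196 in EpiLC and 523 and 471 with DMSO.

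Socs3, Stat3, Klf5 and Tbx3 were among the listed genes that rose. Socs3, a feedback inhibitor of cytokine signalling, rose from 7.22 and 5.21 to 111 and 99.7 (3.90 ± 0.13, adjusted p = 2.3e-15), with DMSO at 124 and 126 and no called difference between the treatments (adjusted p = 0.17). Stat3, a transcription factor activated by leukaemia inhibitory factor, rose from 26.2 and 26.3 to 70.7 and 73.7 with dTAG13 and stood at 69.9 and 69.1 with DMSO. Klf5 rose from 136 and 135 to 437 and 394, with DMSO at 492 and 457, and Tbx3, a T-box factor, from 32.4 and 27.7 to 184 and 204, with DMSO at 210.4 and 209.7. For Stat3, Klf5 and Tbx3 the difference between treatments was not called (adjusted p = 0.78, 0.18 and 0.44). A further group rose but stopped short of DMSO. Nanog, a central factor of naive cells and of PGCLC induction, was 104 and 105 in EpiLC, 159 and 143 with dTAG13 and 438 and 427 with DMSO. Its rise of 0.53 ± 0.13 with dTAG13 (adjusted p = 0.0023) compares with 2.04 ± 0.13 with DMSO, and the difference between treatments was −1.51 ± 0.13 (adjusted p = 1.7e-08). Tfcp2l1 rose to 246 and 231 from 76.7 and 83.4, below the 304 and 366 with DMSO, and Nr5a2 to 72.0 and 63.1 from 38.3 and 29.4, below 111 and 104.

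Genes of the core pluripotency network, shared by naive and formative cells, were mostly lower. Of 12 genes, 10 were lower than EpiLC with dTAG13 and 1 higher, with a median of −0.98, against 7 lower and 1 higher with DMSO and a median of −0.42. Against DMSO, 10 of the 12 were lower with dTAG13 and none higher. Among all genes 29.7% were lower with dTAG13, 14.7% with DMSO and 19.9% against DMSO. The 1 higher gene was Nanog, which the list shares with the naive genes. Pou5f1, which encodes Oct4, was 356 and 365 in EpiLC, 339 and 302 with DMSO and 185 and 199 with dTAG13. It fell by 0.90 ± 0.11 on the log2 scale with dTAG13 (adjusted p = 3.8e-07), while the DMSO step was not called (−0.17 ± 0.11, adjusted p = 0.25). Sox2 was 358 and 328 with dTAG13 against 392 and 381 in EpiLC, a change that was not called (adjusted p = 0.21), and was lower than with DMSO (503 and 452), with a difference of −0.48 ± 0.11 (adjusted p = 0.0024). Dppa5a, a marker of pluripotent and germ cells, fell from 94.4 and 76.8 to 43.4 and 39.9 with dTAG13 and was at 109 and 72.1 with DMSO.

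Genes of the formative epiblast mostly fell in both steps. Of 21 tested genes, 20 were lower than EpiLC with dTAG13 and 1 higher, with a median of −2.60, and 18 were lower with DMSO and none higher, with a median of −1.88, where 29.7% and 14.7% of all genes were lower. Of the 13 listed genes of the falling programme, 12 fell. Fgf5 fell from 132 and 155 to 0.466 and 2.27 with dTAG13 and 1.13 and 1.36 with DMSO, by 6.04 ± 0.33 with dTAG13 (adjusted p = 3.9e-12), the largest fall among the named genes. Otx2, the homeobox factor that restrains germ cell entry, fell from 221 and 225 to 23.2 and 25.1, with DMSO at 27.0 and 20.9. Lef1, a Wnt effector, fell from 259 and 265 to 15.2 and 15.9, with DMSO at 15.1 and 14.7. For Fgf5, Otx2 and Lef1 the treatments did not differ by the test (adjusted p = 0.95, 0.93 and 0.88).

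Other formative genes differed between the treatments, in both directions. Tcf15, a basic helix-loop-helix factor of primed epiblast, fell from 125 and 122 to 13.8 and 14.6 with dTAG13 but only to 68.3 and 53.6 with DMSO, a difference of −2.02 ± 0.14 (adjusted p = 7.3e-10). Zic2, a zinc-finger factor of the epiblast, fell from 175 and 186 to 26.0 and 21.5, with DMSO at 45 and 51.7, and its relative Zic5 fell from 88.3 and 94.7 to 12.7 and 12.8, with DMSO at 30.1 and 27.0. Foxd3, a forkhead factor of epiblast and neural crest that is on the core pluripotency list, fell from 126 and 137 to 13.7 and 14.4, below the 38.5 and 36.9 with DMSO. Pou3f1, the neural-biased POU factor Oct6, in contrast fell less far with dTAG13, from 249 and 283 to 26.1 and 42.0 against 8.93 and 16.1 with DMSO (1.39 ± 0.28, adjusted p = 6.5e-04). Sox4 was likewise higher with dTAG13 (82.1 and 105) than with DMSO (41.5 and 42.7) and below EpiLC (157 and 204). Wnt8a, a Wnt ligand of the early streak and a falling programme gene, rose instead, from 3.55 and 3.55 to 20.05 and 15.5, with DMSO at 1.01 and 2.71 (2.04 ± 0.32 with dTAG13, adjusted p = 1.7e-05).

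Signalling genes of the epiblast were mostly lower as well. Of 17 tested genes of Nodal and fibroblast growth factor (FGF) signalling, 14 were lower than EpiLC with dTAG13 and 1 higher, with a median of −1.22, against 10 lower and 1 higher with DMSO and a median of −0.60. The backgrounds for the lower calls were 29.7% with dTAG13 and 14.7% with DMSO. Nodal itself was 145 and 120.3 with dTAG13, overlapping the 114 and 123 of EpiLC, while DMSO libraries were at 75.6 and 79.8. After quantile normalization it was called higher than EpiLC, by 0.43 (adjusted p = 0.0084). Its feedback inhibitors fell with dTAG13. Lefty1 went from 140.1 and 179.6 to 28 and 21.0, with DMSO at 103 and 113, and Lefty2 from 238 and 226 to 53.2 and 54.0, with DMSO at 266 and 222. Lefty1 and Lefty2 are similar in sequence, and how shared reads were counted is not given in the sources used here. Tdgf1, the Nodal co-receptor Cripto, fell from 521 and 466 to 236 and 219 with dTAG13 and was at 498 and 441 with DMSO. Of 13 Wnt target genes tested, 8 were lower and 3 higher than EpiLC with dTAG13, with a median of −0.54, and the 8 became 5 after quantile normalization. With DMSO 5 were lower and none higher, with a median of −0.36. Against DMSO, 6 were higher with dTAG13 and 2 lower, with a median of 0.59 against −0.09 for all genes, of which 13.7% were higher and 19.9% lower. The 3 that rose, 23.1% of the list against 20.3% of all genes, included 2 with an EpiLC mean under 1. They were the ligand Wnt3 (0.507 and 1.44 to 13.7 and 20.5, with DMSO at 1.01 and 2.99), the stem cell factor Ascl2 (1.39 and 1.88 to 7.93 and 11.2, with DMSO at 1.76 and 1.9) and the ubiquitin ligase Rnf43 (1.27 and 0.665 to 9.01 and 11.8, with DMSO at 2.77 and 1.9).

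The enzymes of DNA methylation were mostly lower. Of 20 genes for DNA methylation and histone methyltransferases, 15 were lower than EpiLC with dTAG13 and 2 higher, with a median of −0.61, against 8 lower and 2 higher with DMSO. The share of all genes called lower was likewise larger with dTAG13 (29.7%) than with DMSO (14.7%). After quantile normalization 10 were lower with dTAG13. Dnmt3b, a de novo methyltransferase, fell from 628 and 794 to 108 and 87.2, with DMSO at 106 and 136 and no called difference between treatments (adjusted p = 0.12), and Dnmt3a fell from 771 and 848 to 105 and 93.6. Their cofactor Dnmt3l fell less with dTAG13, from 135 and 140.5 to 45.2 and 41.6 against 21.5 and 21.3 with DMSO (0.99 ± 0.16, adjusted p = 4.6e-05). Uhrf1, which recruits maintenance methylation to replicated DNA, fell from 368 and 424 to 107 and 108, below the 208 and 193 with DMSO. Tet1, an enzyme that oxidises methylated cytosine, was at 1302 and 1176 with dTAG13 against 2352 and 2398 in EpiLC and 2249 and 2203 with DMSO. It fell with dTAG13 by 0.94 ± 0.11 (adjusted p = 5.2e-07), and the DMSO step was not called (adjusted p = 0.59).

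Among falling programme genes that failed to turn off, the largest change in the vector lines was that of Xist, the long non-coding RNA that coats the inactive X chromosome. Xist was 129 and 138 in EpiLC, 5.41 and 5.02 with DMSO and 250.2 and 253 with dTAG13, so that the 3 groups were far apart. With dTAG13 it rose by 0.91 ± 0.16 (adjusted p = 7.9e-05) while the DMSO step was −4.44 ± 0.16 (adjusted p = 2.1e-14), and the treatments differed by 5.35 ± 0.16 (adjusted p = 1.8e-15). In the vector lines Xist fell from 129.6, 114 and 121 in EpiLC to 5.32, 4.62 and 1.21 at day 2. Tsix, the transcript antisense to Xist, added after its values were seen, was 70.7 and 55.1 in EpiLC, 98.4 and 82.5 with DMSO and 55.9 and 51.9 with dTAG13. Whether reads were counted by strand is not given in the sources used here, so reads from this overlapping pair cannot be told apart with certainty. The 557 tested X-linked genes had a median change of −0.27 with dTAG13 and −0.09 with DMSO, an offset from the autosomes of −0.14 and −0.04. The part of Xist in this offset was not tested.

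The next 7 such genes were Thbs1, Kcng3, Nefm, Syt13, Sema6a, Flnc and Arl4c. Thbs1, a matrix glycoprotein gene, was 24.6 and 26.5 in EpiLC and 23.0 and 31.2 with dTAG13, with overlapping groups, against 2.64 and 5.29 with DMSO. Sema6a, an axon guidance receptor gene, was 28.9 and 30.6 with dTAG13, just below the 37.5 and 36.1 of EpiLC, against 3.52 and 4.34 with DMSO. Flnc, which crosslinks actin, was 58.1 and 69.6 with dTAG13, overlapping the 60.2 and 73.2 of EpiLC, against 13.7 and 18.7 with DMSO. Their changes from EpiLC were not called (adjusted p = 0.86, 0.27 and 0.81), and each was higher than with DMSO, by 2.54 ± 0.28, 2.65 ± 0.22 and 1.92 ± 0.19. Arl4c, Nefm, Kcng3 and Syt13 were also higher than with DMSO, by 1.80 ± 0.17, 2.39 ± 0.30, 2.02 ± 0.31 and 1.11 ± 0.32. Kcng3 was called lower than EpiLC (−0.73 on the log2 scale) in a fit of only the 6 libraries (adjusted p = 0.0061), and then did not meet the rule. Without either DMSO library it was also called lower, with the same change of −0.73. Nefm was called higher than EpiLC after median-ratio scaling, with edgeR and without dTAG13 replicate 1 (adjusted p = 0.047, 0.025 and 0.032). Nefl, the neurofilament light chain gene, fell with dTAG13 from 177 and 163 to 26.0 and 27.2, less far than with DMSO (6.79 and 5.16).

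The 8 rising programme genes with the largest change in the vector lines that failed to turn on were Klf4, Notch4, Prdm14, Dcaf12l1, Slc2a3, Esrrb, Bmp4 and Dlgap3. Notch4, a receptor best known from vessels, was 6.37 and 4.15 with dTAG13, below the 10.3 and 11.4 of EpiLC, and 41.1 and 38.4 with DMSO (−2.73 ± 0.24, adjusted p = 1.8e-08). Its fall from EpiLC was not called without dTAG13 replicate 2 (adjusted p = 0.058). Slc2a3, a glucose transporter gene, was 229 and 236 with dTAG13 against 387 and 441 in EpiLC and 563 and 619 with DMSO. Dlgap3, a synaptic scaffold gene, was 9.48 and 8.29 against 7.99 and 8.53 in EpiLC, with overlapping groups, and 33.2 and 32.6 with DMSO. Those with the largest change in the vector lines that still rose included Tfap2c, Inhbb, Id1, Aqp3, Padi2, Bcl3 and Tbx3. Among them Inhbb, which encodes an activin subunit, rose to 27.7 and 24.6 from 4.94 and 4.21, short of the 133 and 118 with DMSO (−2.22 ± 0.14, adjusted p = 1.2e-10). Aqp3, a water and glycerol channel gene, rose to 46.9 and 47.1 from 3.42 and 2.88, below the 71.2 and 75.9 with DMSO.

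**Figure D3:**
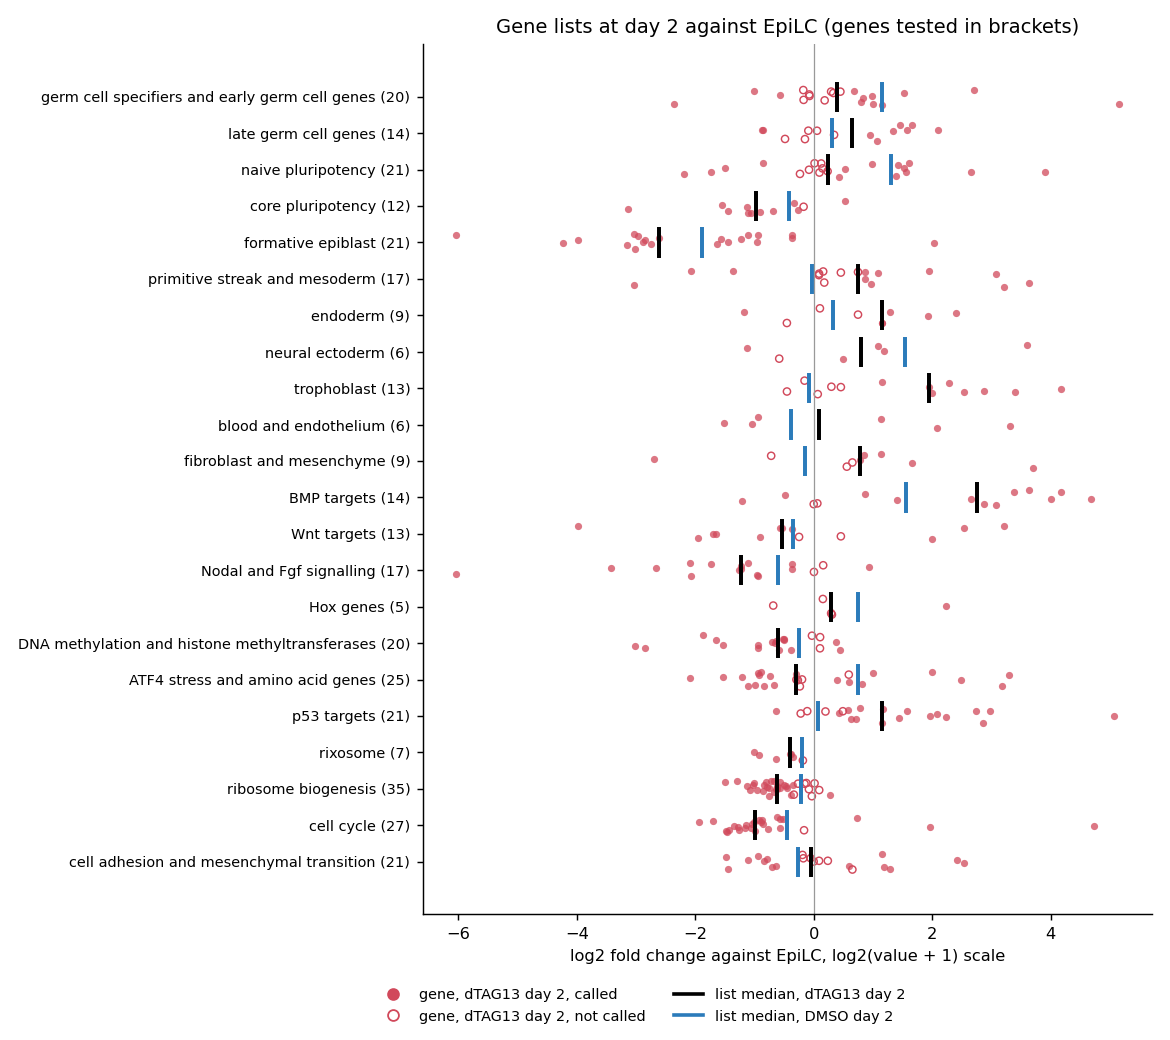
Log2 fold change against EpiLC (x axis, log2(value + 1) scale) of each tested gene of 22 lists with dTAG13 (points, filled where called), with the list medians for dTAG13 and DMSO as bars. The formative epiblast list lies to the left for both treatments, BMP targets lie to the right for both, and the medians of the ATF4 and p53 lists are apart, at −0.29 and 1.15 with dTAG13 against 0.74 and 0.08 with DMSO.

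Genes of the integrated stress response differed between the treatments. ATF4, its transcription factor, switches on amino acid synthesis and transport and binds, with partners such as Ddit3 (also called Chop), composite elements of the type TGATGNAA, N being any base. This element, on either strand, was found in 3.97% of 32851 promoter windows of 300 bases (250 bases before to 50 after the gene start) and in 32.1% of the 28 windows of the ATF4 list. Of the 25 listed genes, 23 had a window and 9 of these held a match, which describes these letters only and is not a binding site. Promoters with the match are shown for 3 genes that were lower with dTAG13 than with DMSO and for Atf3, which was higher, to set like elements beside unlike changes. Sequences are from RefSeq for GRCm38.p6 (mm10), in the direction of the gene, with the matched bases in capitals (TTGCATCA is the element read on the other strand).
Chac1, chr2:119350992-119351291, plus strand: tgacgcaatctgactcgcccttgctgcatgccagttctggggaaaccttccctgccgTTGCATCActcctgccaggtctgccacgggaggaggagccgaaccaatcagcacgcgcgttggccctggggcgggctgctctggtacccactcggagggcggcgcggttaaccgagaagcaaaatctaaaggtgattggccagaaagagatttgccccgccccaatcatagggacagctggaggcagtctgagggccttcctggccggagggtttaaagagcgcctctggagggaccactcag
Asns, chr6:7693160-7693459, minus strand: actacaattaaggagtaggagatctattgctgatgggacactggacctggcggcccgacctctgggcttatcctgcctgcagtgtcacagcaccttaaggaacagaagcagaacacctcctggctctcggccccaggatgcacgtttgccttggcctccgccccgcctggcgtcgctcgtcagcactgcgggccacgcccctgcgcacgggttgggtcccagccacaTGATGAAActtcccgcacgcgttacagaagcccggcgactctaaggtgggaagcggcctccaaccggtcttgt
Nupr1, chr7:126625421-126625720, minus strand: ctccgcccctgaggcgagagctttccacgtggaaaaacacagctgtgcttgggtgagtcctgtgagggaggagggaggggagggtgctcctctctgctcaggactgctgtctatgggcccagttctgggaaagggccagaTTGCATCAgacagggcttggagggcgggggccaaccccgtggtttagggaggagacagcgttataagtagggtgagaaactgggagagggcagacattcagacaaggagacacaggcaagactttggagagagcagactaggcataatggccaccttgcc
Atf3, chr1:191183284-191183583, minus strand: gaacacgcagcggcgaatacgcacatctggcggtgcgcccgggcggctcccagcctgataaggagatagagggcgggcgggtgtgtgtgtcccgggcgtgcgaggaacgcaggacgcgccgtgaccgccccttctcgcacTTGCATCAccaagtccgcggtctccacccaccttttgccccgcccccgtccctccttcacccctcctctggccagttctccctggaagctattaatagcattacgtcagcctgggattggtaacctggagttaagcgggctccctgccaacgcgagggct

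With dTAG13, 8 of 25 ATF4-related genes were higher than EpiLC and 12 lower, with a median of −0.29, whereas with DMSO 14 were higher and 3 lower, with a median of 0.74. Against DMSO, 19 of the 25 were lower and 5 higher. For all genes the shares were 20.3% higher and 29.7% lower with dTAG13, 11.5% and 14.7% with DMSO, and 13.7% and 19.9% between the treatments. Chac1, Asns, Psat1, Nupr1 and Pck2 were called higher with DMSO and were not called higher with dTAG13. Chac1, which degrades glutathione, was 4.56 and 4.32 in EpiLC, 30.3 and 25.5 with DMSO and 3.3 and 4.01 with dTAG13, a difference between treatments of −2.64 ± 0.23 (adjusted p = 1.4e-08). Asns, asparagine synthetase, was 104 and 118 in EpiLC, 197 and 172 with DMSO and 60.9 and 61.8 with dTAG13, a change from EpiLC of −0.84 ± 0.12 (adjusted p = 3.2e-06). Psat1, of serine synthesis, was 97.9 and 90.4 with dTAG13 against 110.3 and 123 in EpiLC and 264 and 272 with DMSO. Nupr1, a small chromatin-associated stress protein, was 1.09 and 0.401 with dTAG13, 1.65 and 2.10 in EpiLC and 13.7 and 10.7 with DMSO, and Pck2, the mitochondrial phosphoenolpyruvate carboxykinase, was 21.0 and 10.4, 17.5 and 18.7 and 65.9 and 70.6 in the same order. Without dTAG13 replicate 1, Pck2 was called lower than EpiLC (−0.74, adjusted p = 0.0036). The calls of Psat1 and Nupr1 as lower than EpiLC were lost in 9 and 7 settings, among them edgeR (adjusted p = 0.22 and 0.059), whereas both were below DMSO, with differences of −1.50 ± 0.12 and −2.94 ± 0.29.

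Atf4 mRNA itself rose in both steps, from 118 and 138 to 173 and 163 with dTAG13 and 223 and 217 with DMSO, a rise with dTAG13 that was not called without EpiLC replicate 1 (adjusted p = 0.078). Trib3, a pseudokinase that restrains the response, also rose, to 17.9 and 25.3 from 8.62 and 11.9, with DMSO at 39.5 and 41.9. On the list, 5 genes were higher with dTAG13 than with DMSO, and all 5 rose from EpiLC. Ddit3 rose from 1.27 and 0.554 to 17.9 and 17.0, with DMSO at 2.77 and 2.31. Atf3, a stress factor with several inducers, rose from 2.28 and 1.44 to 23.5 and 25.6, with DMSO at 2.39 and 3.66. Ddit4, an inhibitor of mTOR signalling that p53 also induces, rose from 49.8 and 63.1 to 325 and 311, with DMSO at 57.7 and 60.4 (2.41 ± 0.12, adjusted p = 7.2e-12). Cebpb and Sesn2 were higher than with DMSO by 1.56 ± 0.27 and 0.67 ± 0.11. Asns lies on chromosome 6, whose genes as a whole were lower with dTAG13 (given with the chromosomes).

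Targets of p53, the factor that halts growth on DNA damage, were mostly higher with dTAG13. Of 21 genes, 16 were higher than EpiLC and 1 lower, with a median of 1.15, against 8 higher and 3 lower with DMSO and a median of 0.08. Against DMSO, 16 were higher and 1 lower. Of all genes 20.3% were higher with dTAG13, 11.5% with DMSO and 13.7% between the treatments. Mdm2, the ubiquitin ligase of p53, rose from 179 and 172 in EpiLC to 1196 and 1158 with dTAG13, with DMSO at 235 and 233 (2.74 ± 0.10, adjusted p = 3.1e-15). Cdkn1a, the cell cycle inhibitor p21, rose from 45.9 and 49.6 to 189.9 and 186, with DMSO at 54.6 and 45.5. Perp, a desmosome-associated p53 target, rose from 10.9 and 11.2 to 396 and 413, with DMSO at 58.2 and 57.9, and is itself a rising programme gene. In none of these 3 genes did the dTAG13 libraries overlap another group.

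Further p53 targets rose as well. Btg2, which slows proliferation, rose from 27.8 and 27.0 to 207 and 204 (DMSO 50.2 and 46.1), and Plk2, a kinase of the centrosome cycle, from 20.5 and 20.3 to 155 and 180.2 (DMSO 30.4 and 28). Ccng1, a cyclin induced by p53, rose from 344 and 369 to 786 and 797. The death genes Bbc3 and Pmaip1 rose by 1.16 ± 0.12 and 0.58 ± 0.15, the latter not called without EpiLC replicate 1 (adjusted p = 0.073), whereas the change of Bax was not called (−0.22 ± 0.13, adjusted p = 0.16). Trp53 mRNA was 131 and 127 with dTAG13 against 138 and 140.5 in EpiLC, and its change was not called (adjusted p = 0.42). The 1 gene called lower was Sesn1, at 28 and 23.3 against 42.6 and 37.9 in EpiLC.

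**Figure D4:**
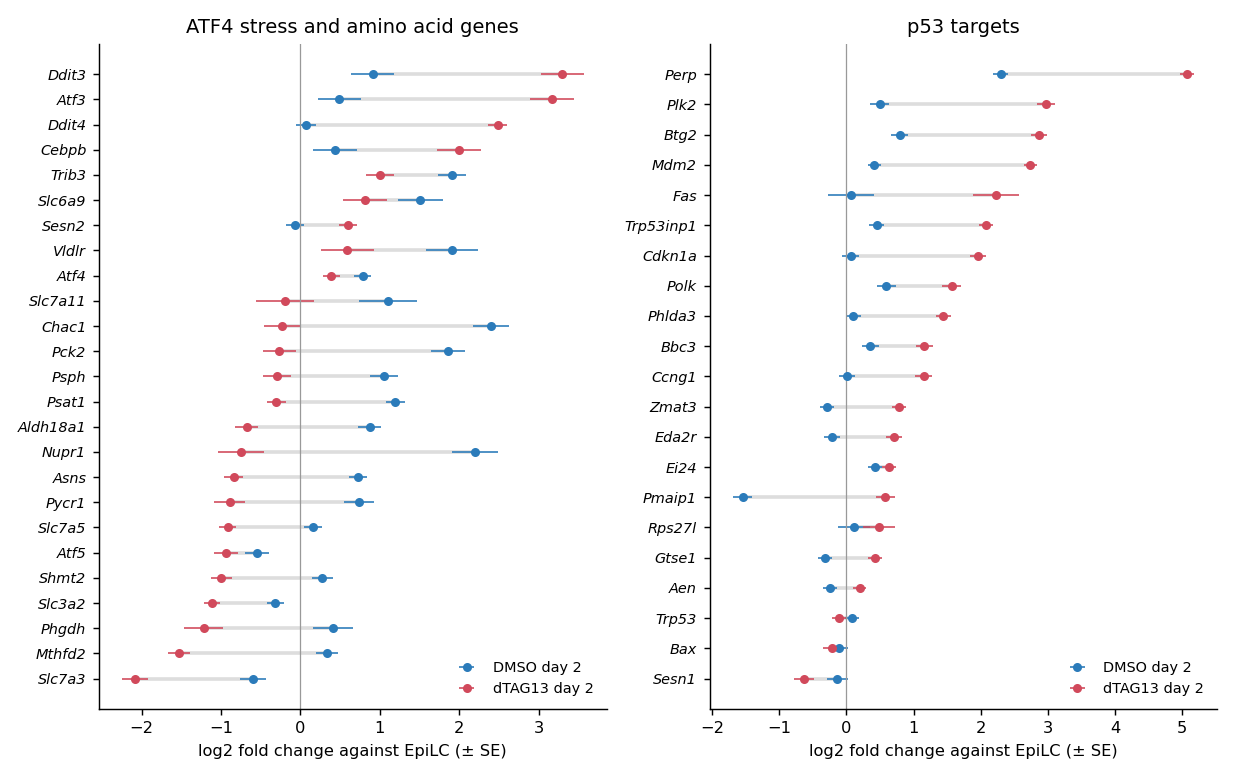
Log2 fold change against EpiLC (x axis, ± SE of the fit over 10 libraries) of each tested gene of the ATF4 and p53 lists, with dTAG13 and with DMSO, the grey bar joining both values of a gene. In the ATF4 list Ddit3, Atf3, Ddit4, Cebpb and Sesn2 lie further right with dTAG13 and 19 genes are called lower than with DMSO, and in the p53 list 16 of 21 genes are called higher.

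Genes of ribosome production and of the cell cycle were mostly lower. The complex of Tex10 is listed with 7 genes, of which 6 were lower than EpiLC with dTAG13 and none higher, with a median of −0.39, and 3 were lower than with DMSO. Of all genes, 29.7% were lower than EpiLC with dTAG13 and 14.7% with DMSO, and 19.9% were lower with dTAG13 than with DMSO. Senp3, the SUMO protease of the complex, fell from 201 and 218 to 109 and 97.5, with DMSO at 151 and 149, and Pelp1, its scaffold, from 227 and 242 to 117 and 129, with DMSO at 185 and 176. After median-ratio scaling 4 of the 7 were lower, and after quantile normalization 3. Of 35 ribosome biogenesis genes, 26 were lower than EpiLC with dTAG13 and 1 higher, with a median of −0.62, against 12 lower and 1 higher with DMSO and a median of −0.21, beside the same shares of all genes. Ncl, nucleolin, fell from 2275 and 2263 to 1149 and 1078, with DMSO at 1754 and 1542. Nolc1, a nucleolar chaperone gene, fell from 355 and 351 to 129.6 and 120.4, with DMSO at 239 and 202. The 1 gene that rose was Utp20, of the small subunit processome, at 287 and 275 against 217 and 247 in EpiLC, a call lost without EpiLC replicate 1 or either dTAG13 library (adjusted p = 0.27, 0.17 and 0.085).

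Of 27 cell cycle genes, 23 were lower than EpiLC with dTAG13 and 3 higher, with a median of −0.999, against 19 lower and 2 higher with DMSO and a median of −0.45. The corresponding lower shares of all genes were 29.7% and 14.7%. Pcna, the sliding clamp of replication, fell from 88.3 and 102 to 25.2 and 23.1, with DMSO at 50.2 and 43.3 (−0.92 ± 0.14 between treatments, adjusted p = 2.8e-05). Mki67 fell from 1125 and 1141 to 560.3 and 641, with DMSO at 966 and 876, and cyclin E1, Ccne1, from 79.3 and 103 to 37.6 and 27.2, with DMSO at 58.0 and 62.4. The cyclins D went apart. Ccnd1 fell from 262 and 272 to 79.6 and 84.3, with DMSO at 145 and 134, and Ccnd3 fell to 58.4 and 52.4 from 97.2 and 105, with DMSO at 107 and 119.8. Ccnd2 rose from 3.17 and 3.21 to 107 and 114, with DMSO at 18.7 and 19.5, a change of 4.73 ± 0.17 (adjusted p = 3.5e-15).

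Markers of other lineages were mixed. A gene that is low in EpiLC can pass the filter through the dTAG13 libraries alone, so the counts over tested genes, beside the 20.3% higher and 29.7% lower of all genes with dTAG13 (11.5% and 14.7% with DMSO, 13.7% and 19.9% between the treatments), are given as a description and nothing is read from them. Of 18 trophoblast genes 13 were tested, 8 were higher than EpiLC with dTAG13 and none lower, and 2 of the 8 had an EpiLC mean under 1. With DMSO 4 were higher and 3 lower, and against DMSO 8 were higher and 1 lower. The list's summed level, most of it from Peg10, was 2925 and 4139.8 with dTAG13, above the 2596 and 2775 of EpiLC and the 990.4 and 1299.7 of DMSO. Without Peg10 the sums were 254 and 349 with dTAG13, 175 and 182 with DMSO and 92.5 and 96.6 in EpiLC, so the DMSO sums were then above EpiLC. Krt8, a keratin of simple epithelia, rose from 8.62 and 9.53 to 49.0 and 67.2, with DMSO at 7.55 and 9.64, and its partner Krt18 from 35.6 and 38.0 to 61.2 and 112, with DMSO at 18.4 and 18. Without dTAG13 replicate 2 the rise of Krt18 was not called (adjusted p = 0.054). Gata3 rose from 1.65 and 1.66 to 16.3 and 20.9, with DMSO at 6.29 and 7.19, and Hand1 from 4.82 and 7.87 to 22.4 and 31.6, with DMSO at 4.28 and 7.33. The trophoblast-defining Cdx2 was 2.02 and 2.14 with dTAG13 and 1.27 and 1.22 in EpiLC and its change was not called (adjusted p = 0.24), and Elf5, Tpbpa and Prl3d1 were under the filter. Several of these genes are also BMP targets or keratins of other epithelia.

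Of 30 streak and mesoderm genes, 17 were tested, 8 were higher than EpiLC with dTAG13 and 3 lower, and 4 of the 8 had an EpiLC mean under 1. With DMSO 4 were higher and 5 lower. The summed levels were 261 and 263 with dTAG13, 143 and 148 with DMSO and 214 and 236 in EpiLC. Without Nodal, the highest listed gene in EpiLC, they were 115 and 142, 67.7 and 68.1, and 100.4 and 113 in the same order. The streak markers T, Mixl1 and Mesp1 were under the filter. Eomes, a T-box factor of the streak, fell from 57.5 and 63.0 to 5.91 and 7.09, with DMSO at 6.16 and 5.16. Tbx4, a T-box gene of limb and allantois, rose from 1.39 and 1.55 to 17.7 and 22.3, with DMSO at 1.13 and 1.76. Of 20 endoderm genes 9 were tested, 5 were higher and 1 lower, and 3 of the 5 had an EpiLC mean under 1. With DMSO 2 were higher and none lower, and against DMSO 3 were higher and 3 lower. The summed levels were 395 and 461 with dTAG13, 308 and 316 with DMSO and 215 and 244 in EpiLC. Most of the dTAG13 sum came from Sparc, a matrix glycoprotein gene (184 and 220.5), and Cldn6, a claudin gene (131 and 167), while Sox17 and Foxa2 were under the filter. Without Sparc the sums were 211 and 240 with dTAG13, 210 and 222 with DMSO and 126 and 152 in EpiLC.

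Of 16 neural genes 6 were tested, and 4 were higher than EpiLC in each step, with 1 lower with dTAG13 and none with DMSO. The median was 0.79 with dTAG13 and 1.54 with DMSO, and against DMSO 4 were lower and 2 higher. Pax6, an eye and forebrain factor, rose from 0.760 and 0.776 to 3.42 and 2.68, below the 7.42 and 8.28 with DMSO. Tubb3, a neuronal tubulin gene, rose from 12.7 and 14.4 to 19.7 and 19, below the 46.4 and 41.9 with DMSO, a rise that was not called without EpiLC replicate 1 or either dTAG13 library (adjusted p = 0.12, 0.083 and 0.055). Nes, an intermediate filament gene of progenitors, went the other way and rose from 16.1 and 18.2 to 212 and 225, above the 49.4 and 50.9 with DMSO. Blood and endothelial genes were tested for 6 of 17, with 3 higher and 3 lower with dTAG13 and 2 higher and 2 lower with DMSO. Runx1, a blood factor gene, rose from 1.39 and 0.886 to 6.53 and 9.63, with DMSO at 0.629 and 1.36, and Tek, an endothelial receptor gene, from 2.15 and 1.11 to 23.9 and 25.6, with DMSO at 7.55 and 6.38. The 3 lower genes were Tal1, Egfl7 and Notch4. Tal1, a blood stem cell factor gene, fell from 2.66 and 4.65 to 0.622 and 2.01, with DMSO at 1.26 and 1.36, and Egfl7, a gene of blood vessels, from 10.5 and 10.7 to 4.51 and 2.01, with DMSO at 3.14 and 3.80. The fall of Tal1 was not called in 5 settings, among them edgeR (adjusted p = 0.054) and without EpiLC replicate 2 or dTAG13 replicate 1 (adjusted p = 0.20 and 0.22). Notch4 is given with the rising programme genes above. Fibroblast genes were tested for 9 of 16, with 5 higher and 1 lower, 3 of the 5 with an EpiLC mean under 1. After quantile normalization 3 were higher, and with DMSO 2 were higher and 2 lower. Their summed levels were 70.2 and 78.9 with dTAG13, 27.5 and 35.1 with DMSO and 21.5 and 23.8 in EpiLC. Most of the dTAG13 sum came from Tagln, a smooth muscle actin-binding gene at 46.3 and 49.6 with dTAG13 against 2.79 and 2.77 in EpiLC and 12.1 and 20.2 with DMSO. The part of cells of other types in the results above was not tested.

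Of 21 tested adhesion genes, 6 were higher than EpiLC with dTAG13 (28.6%, against 20.3% of all genes) and 8 lower (38.1%, against 29.7%), with a median of −0.05. These shares are near those of all genes. With DMSO 4 were higher and 10 lower, where 11.5% and 14.7% of all genes were. Cdh1, E-cadherin, was 707 and 811 with dTAG13, overlapping the 713 and 805 of EpiLC (called higher, by 0.45, after quantile normalization), while DMSO libraries were lower at 535 and 544 (0.49 ± 0.11, adjusted p = 0.0012). Cldn4, a tight junction claudin and rising programme gene, rose from 68.2 and 78.9 to 366 and 430.4, with DMSO at 147 and 164. Cdh2, N-cadherin, fell from 16.4 and 12.7 to 4.04 and 5.35, less far than with DMSO (1.13 and 1.76). Fn1, fibronectin, fell from 737 and 708 to 267 and 250.2, further than with DMSO (502 and 497). Of 20 Hox genes 5 were tested, 1 was higher than EpiLC with dTAG13 and none lower, a share close to that of all genes, and with DMSO 2 were higher and none lower. Of the 5 tested Hox genes, 4 lie on chromosome 6, whose genes as a whole were lower with dTAG13 (given with the chromosomes).

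The largest rises that were also above DMSO and were not called as rises in the vector lines were those of Ahnak2, Ptprt, Ltb4r2, Gria3, Jph2, Itga8, Vgf and Cyyr1. Ahnak2, a giant scaffold protein gene, rose from 4.69 and 4.54 to 167 and 203, with DMSO at 15.7 and 19.3 (5.04 ± 0.15, adjusted p = 4.7e-16), but it was not tested in the vector lines. Ptprt, a receptor tyrosine phosphatase gene, rose from 0.507 and 0.332 to 38.7 and 34.5, with DMSO at 2.26 and 1.76. Gria3, a glutamate receptor subunit gene, rose from 1.01 and 1.44 to 44.0 and 43.7, with DMSO at 5.79 and 4.61, and Vgf, a neuropeptide precursor gene, from 1.01 and 0.886 to 32.8 and 35.7, with DMSO at 2.39 and 3.12. Ltb4r2, a leukotriene receptor gene, rose from 4.18 and 2.44 to 96.8 and 81.9, but it overlaps Cideb and reads of the pair may not be separable. Krt19, a keratin of simple epithelia, rose from 0.127 and 0.665 to 27.8 and 39.1, with DMSO at 2.77 and 3.3, and H19, an imprinted non-coding RNA, from 5.58 and 3.99 to 127 and 135, with DMSO at 34.5 and 25.1.

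Among the largest falls of all genes was that of Slc16a3, a lactate exporter gene, which went from 402 and 453 to 17.9 and 16.6, with DMSO at 36.5 and 33.2 (−4.55 ± 0.19, adjusted p = 5.9e-14). Egln3, an oxygen-sensing prolyl hydroxylase gene, fell from 32.8 and 39.4 to 1.86 and 1.34, with DMSO at 9.06 and 6.24, although it rose in the vector lines by 1.52. Bnip3, a mitophagy receptor gene, fell from 46.9 and 45 to 4.66 and 6.15, with DMSO at 13.6 and 11.4. The histone gene H2bc12 fell from 149.6 and 186 to 24.6 and 21.1, with DMSO at 133 and 101. H2ac7, another histone gene, fell from 66.4 and 37.2 to 4.66 and 6.42, with DMSO at 67.3 and 25.5. Histone genes are near copies of each other, so how their reads were divided is uncertain. Kank4, of the ankyrin-repeat family that regulates actin, fell from 29.4 and 32.3 to 2.95 and 3.61, with DMSO at 19.2 and 22.5. Fads2, a fatty acid desaturase gene, fell from 89.4 and 90.4 to 8.55 and 5.35, with DMSO at 24.9 and 21.4.

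The changes were not evenly spread over the chromosomes. Of the 16605 tested genes, 15028 (90.5%) could be placed on a chromosome by symbol. On chromosome 6, 731 genes were tested, and their median change from EpiLC with dTAG13 was −0.43, which is −0.31 relative to the other autosomes. Among them, 344 (47.1%) were called lower, against 29.7% of all genes. With DMSO the offset of chromosome 6 was −0.02, and against DMSO the dTAG13 libraries had an offset of −0.27. The other autosomes had offsets between −0.14, for chromosome 13, and 0.10, for chromosome 9, with dTAG13. Slc2a3, Asns and Flnc, named above, are on chromosome 6, as are Nanog, Stra8, Gata2 and Ccnd2, which rose from EpiLC with dTAG13. The part of this offset in the values of these genes was not tested. Whether the dTAG13 libraries also differ from the others in karyotype or cell line was not tested, for chromosome 6 or for Xist. Leaving out the genes of chromosome 6 and the X chromosome gave 551 of 981 rising genes called higher (56.2%) and 186 failing to turn on (18.96%).

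**Figure D5:**
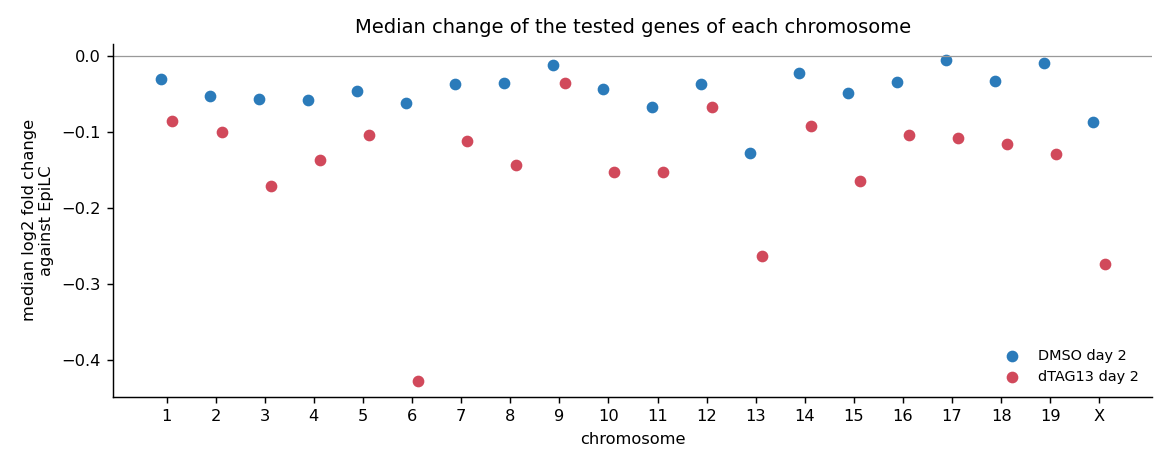
Median log2 fold change against EpiLC (y axis) of the tested genes of each chromosome (x axis), with dTAG13 and with DMSO. Chromosome 6 stands lowest with dTAG13 at −0.43, followed by the X chromosome at −0.27 and chromosome 13 at −0.26, and the DMSO values lie between −0.13 and −0.01.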

How the data were processed

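RNA was sequenced from mouse EpiLCs and PGCLCs, and the values used are TMM-scaled CPM (reads scaled to library size), a normalized signal deposited by the authors in 1 table per experiment. The submitters' processing notes name Bowtie2 2.3.4.3, SAMtools 1.9, HTSeq 0.11.2, edgeR 3.26.8 and mm10, with no role or order. Strand counting, and when dTAG13 was added, are not given in the sources used here, nor is the tagged line described. The log2 fold changes and p-values of the authors' own comparisons, deposited beside the values, were not used, and neither was a table of testis libraries.

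Values were transformed as log2(value + 1), and genes whose mean reached 1 in the 10 libraries of the dTAG13 experiment (12 of the overexpression experiment) were fitted with limma 3.58.1 (R 4.3.3) with a mean-variance trend. All 10 libraries shared 1 estimate of the spread, the overexpression fit had line as a covariate, and p-values were adjusted by Benjamini-Hochberg over all genes tested, with calls at 0.05. Fold changes on this scale understate the change of low genes. In each of the 6 libraries 100% of the values were whole multiples of 1 read (within 0.05 reads), which gave the depth, and edgeR 4.0.16 and DESeq2 1.42.0 were run on these reads as alternatives. With edgeR, 7837 genes were called for dTAG13 against EpiLC, 4307 for DMSO against EpiLC and 5033 between the treatments. A count of 3 reads, the floor used, is 0.332 to 0.466 units, and it covers counting error only. Replicates correlated at 0.983 to 0.991 on the log2 scale. The overexpression libraries were made with another kit than the dTAG13 libraries, so levels were compared only within an experiment.

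Named genes were Tex10, members of 22 gene lists, the 12 largest rises and falls, the 8 genes with the largest change in the overexpression lines in each programme class, and the 8 largest rises and falls called in the same direction against DMSO and not called so in those lines. Outside the lists, the 2 groups that chose a gene (dTAG13 and EpiLC, or dTAG13 and DMSO for programme genes that failed to turn on or off) did not overlap, and the higher had a mean of at least 10. The members, the lists and the rule were chosen with earlier results of these data known. The fits were tested on simulated data, and promoters came from RefSeq by gene symbol. Some genes that met the rule are not reported here.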

Additional observations from a re-analysis of the deposited data

How the results depend on the processing

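Calls with a log2 fold change of 1 or more in either direction numbered 3351 for dTAG13 against EpiLC, 1467 for DMSO against EpiLC, 1789 between the treatments and 1943 in the overexpression lines, and this threshold left 112 rising genes that failed to turn on. A mean of at least 5 left 72 falling genes that failed to turn off. With no fold threshold on the programme, 1379 rising genes still rose and 744 failed to turn on, and 1982 falling genes still fell and 308 failed to turn off. With a threshold of 2 on the log2 scale these counts were 124, 33, 114 and 15. Both definitions change the number of programme genes. Leaving out 1 library of the dTAG13 experiment at a time gave 6273 to 8145 calls for dTAG13 against EpiLC, 2496 to 4262 for DMSO against EpiLC (2496 without EpiLC replicate 2 and 2889 without DMSO replicate 1) and 3603 to 5291 between the treatments (3603 without DMSO replicate 1). It gave 519 to 582 rising genes that still rose, 166 to 213 that failed to turn on, 382 to 446 falling genes that still fell and 92 to 117 that failed to turn off. Leaving out 1 line of the overexpression experiment gave 5135 to 6703 calls in those lines, and without the empty-vector line the programme classes held 613, 214, 481 and 122 genes in the same order, the highest of these counts. A fit with fewer libraries has fewer degrees of freedom, and a lone library was then assumed to vary like the other groups. After quantile normalization 53.3% of the calls for DMSO against EpiLC were higher, against 43.8% as deposited. Of 2440 values of 145 named genes under alternatives, 52 lost and 11 gained a call and 1 turned direction, that of Cdh1 (0.45 after quantile normalization). Same-numbered libraries did not deviate together in a way that pairs them (correlations of 0.0015, 0.12 and −0.025). With the replicate number as a block, 8229, 4247 and 5507 genes were called in the 3 comparisons, and 589, 204, 451 and 116 programme genes in the 4 classes, in the order above. Without line as a block the overexpression lines gave 6321 calls. Genes near the floor, and differences smaller than the spread of 2 libraries, could not be resolved at this depth.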
